A study of Sus scrofa with 23 samples.

Results

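A list of 10 genes of renal macrophages, of 26687 genes in all, was described in kidney cortex RNA of newborn pigs. They are CD209 and 9 others: the scavenger receptor CD163, the mannose receptor MRC1, the growth factor receptor CSF1R and its ligand CSF1, the lysosomal protein CD68, the actin-binding protein AIF1 and the 3 complement genes C1QA, C1QB and C1QC. The list is by gene symbol, and CD209 is on it because it was selected on its expression in these libraries, being higher in CF. The values of CD209 in CF against non-CF are therefore given as a description, with no test. RNA of the kidney cortex was sequenced from 23 pigs, 1 library a pig. The labels give 11 pigs with CFTR-/- (CF), 6 with CFTR+/- (HET) and 6 with CFTR+/+ (WT), all newborn, and no treatment is named. HET and WT pigs together are the 12 non-CF pigs of the study, which asked how loss of the anion channel CFTR alters the metabolism of organs. The labels give neither sex nor litter, and each library holds a piece of whole cortex with every cell type in it.

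Macrophages of the kidney settle before birth and lie between the tubules and along the vessels. They take up debris and iron-laden hemoglobin through CD163, glycoproteins through MRC1, and survive on CSF1 or IL34 acting on CSF1R, while they are the main source of the C1q chains that start the classical complement pathway. CD209, also called DC-SIGN, is a C-type lectin of some macrophages and dendritic cells that binds mannose-rich sugars and the adhesion molecules ICAM2 and ICAM3.

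The 3 C1q genes lie side by side on 1 strand of chromosome 6 within 19818 bases of Sscrofa11.1 (chr6:80586259-80606076), with no other annotated gene between them. CD209 lies at chr2:71394414-71397711 between the protein-coding genes EVI5L and CLEC4G, with 8 exons in 1 annotated transcript. CD163 lies at chr5:63300200-63334497, MRC1 at chr10:44107926-44226734, CSF1R at chr2:151102138-151130311 and CSF1 at chr4:110178466-110198232. CD68 lies at chr12:52874754-52877256 and AIF1 at chr7:23711752-23731191. The window from 250 bases before to 50 bases after the gene start is shown for CD209 and for the genes of 2 groups that each varied together across libraries, C1QA, C1QC and C1QB on one side and CD163 and MRC1 on the other. The letters were read from the RefSeq genome Sscrofa11.1, 5′ to 3′ on the strand of the gene. Capitals mark 3 short motifs searched on both strands: GAGGAA, a core that the macrophage factor PU.1 binds, TGCTGAC, part of the site bound by MAF proteins, and TATAAA, the TATA box. Where a match lies on the other strand, its reverse complement stands in capitals.
CD209, chr2:71394164-71394463, plus strand: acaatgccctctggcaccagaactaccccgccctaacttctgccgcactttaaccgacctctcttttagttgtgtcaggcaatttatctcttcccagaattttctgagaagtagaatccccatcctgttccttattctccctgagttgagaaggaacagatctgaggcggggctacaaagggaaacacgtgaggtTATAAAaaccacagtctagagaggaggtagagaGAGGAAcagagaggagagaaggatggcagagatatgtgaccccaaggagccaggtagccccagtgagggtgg
C1QA, chr6:80586009-80586308, plus strand: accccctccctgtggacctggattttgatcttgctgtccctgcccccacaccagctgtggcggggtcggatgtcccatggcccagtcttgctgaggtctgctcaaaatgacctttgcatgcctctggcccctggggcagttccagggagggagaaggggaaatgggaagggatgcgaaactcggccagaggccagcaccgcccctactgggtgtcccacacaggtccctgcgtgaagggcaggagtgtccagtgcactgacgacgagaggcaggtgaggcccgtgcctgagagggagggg
C1QC, chr6:80592341-80592640, plus strand: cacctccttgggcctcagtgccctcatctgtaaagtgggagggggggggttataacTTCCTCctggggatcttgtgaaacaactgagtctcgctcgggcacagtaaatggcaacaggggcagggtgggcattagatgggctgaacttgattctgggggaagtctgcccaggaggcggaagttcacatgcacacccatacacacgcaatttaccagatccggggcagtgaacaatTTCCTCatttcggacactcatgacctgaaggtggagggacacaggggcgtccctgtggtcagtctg
C1QB, chr6:80601430-80601729, plus strand: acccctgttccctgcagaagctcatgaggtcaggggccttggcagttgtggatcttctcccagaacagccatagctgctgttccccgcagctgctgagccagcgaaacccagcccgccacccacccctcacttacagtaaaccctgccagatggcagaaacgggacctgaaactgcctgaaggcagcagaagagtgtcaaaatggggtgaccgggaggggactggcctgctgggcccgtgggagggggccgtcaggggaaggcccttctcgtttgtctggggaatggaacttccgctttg
CD163, chr5:63299950-63300249, plus strand: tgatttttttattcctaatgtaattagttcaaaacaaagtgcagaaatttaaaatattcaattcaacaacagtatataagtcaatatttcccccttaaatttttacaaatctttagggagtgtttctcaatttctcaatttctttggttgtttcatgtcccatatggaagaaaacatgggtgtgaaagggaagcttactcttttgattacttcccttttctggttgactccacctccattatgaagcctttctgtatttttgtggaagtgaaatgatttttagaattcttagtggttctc
MRC1, chr10:44107676-44107975, plus strand: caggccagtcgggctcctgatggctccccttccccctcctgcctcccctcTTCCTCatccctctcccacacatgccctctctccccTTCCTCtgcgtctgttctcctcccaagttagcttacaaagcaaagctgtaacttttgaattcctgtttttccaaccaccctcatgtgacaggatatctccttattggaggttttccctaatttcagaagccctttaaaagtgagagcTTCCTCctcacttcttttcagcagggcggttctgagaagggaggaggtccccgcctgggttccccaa

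The CD209 window held TATAAA from base -55 and GAGGAA from base -22, counted from the gene start. MRC1 held GAGGAA 3 times and C1QC 2 times, each on the other strand. C1QA, C1QB and CD163 held none of the 3 motifs in this window, although C1QA and C1QB varied closely with C1QC. Of 19528 windows of protein-coding genes of the same length, 25.9% held GAGGAA, 3.18% held TGCTGAC and 10.9% held TATAAA. Among the windows not printed, AIF1 held GAGGAA 1 time and CSF1 held TGCTGAC 1 time. A match of these letters is a description and shows no binding.

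The libraries held between 32901281 and 52952273 estimated counts, and a limit of 3 counts lay between 0.0577 and 0.0884 CPM (counts per total of the library, adjusted by its TMM factor, the scaling of edgeR for library composition). CFTR itself went against its labels: the libraries labelled WT held 60 to 178 counts, those labelled HET 442 to 699 and those labelled CF 614 to 1040, so "CF", "HET" and "WT" stand for the labels throughout. On the second axis of a multidimensional scaling, with 10.6% of the variance, the 13 earlier-numbered pigs (1 to 6 and 12 to 18) lay apart from the 10 later-numbered pigs (7 to 11 and 19 to 23). What the numbers stand for is not given, so values are also shown within each number set. The Y-linked gene EIF1AY had over 100 counts in 6 of 11 CF, 5 of 6 HET and 2 of 6 WT libraries. Of 30 further macrophage markers in the annotation, 25 had at least 10 counts in every library, while MARCO, TIMD4 and CD5L were at 0 in some.

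Of the 10 genes, 9 were well measured and CD209 was not. Over 23 libraries AIF1 had the fewest counts of the others, from 59 to 208 a library, and CD163 the most. CD209 had 222 counts in all, was at 0 in 2 libraries and reached 10 counts in 6. In TPM, a scale that also corrects for transcript length, C1QB stood highest at 25.9 ± 5.35 (SD, n = 23), followed by C1QC at 23.6 ± 4.70. CD163 at 16.95 ± 6.42 TPM and C1QA at 16.03 ± 3.46 came next, and neither stood above the other beyond its spread, with CD163 higher in 12 of 23 libraries. CSF1 lay at 8.69 ± 3.43 TPM. AIF1 (5.53 ± 1.69), CD68 (5.48 ± 0.988), CSF1R (5.33 ± 1.12) and MRC1 (4.49 ± 1.68) lay within each other's spread. CD209 was last at 0.351 ± 0.496 TPM and below MRC1 in 23 of 23 libraries.

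CD209 was low in every group, and its highest library was not a CF library. In CF pigs it ranged from 0.0406 CPM (pig 4, 2 counts) through a median of 0.202 to 0.739 CPM (pig 5, 32 counts). In HET pigs 13, 14, 15, 19, 20 and 21 it had 2, 0, 4, 3, 5 and 4 counts. In WT pigs 12, 16, 17, 18, 22 and 23 it had 5, 0, 61, 1, 4 and 5 counts. WT pig 17 thus held 27.5% of all CD209 counts and 64.9% of the counts in non-CF libraries, and its 95% Poisson interval of 46.7 to 78.4 counts lay above that of every other library, whose highest was 21.9 to 45.2 in CF pig 5. These intervals cover counting error only.

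In CF, 10 of 11 libraries lay above the non-CF median of 0.0917 CPM, and the same number lay above every HET library. The means were 0.271 ± 0.201 CPM in CF (SD, n = 11), 0.0666 ± 0.0387 in HET (n = 6) and 0.284 ± 0.522 in WT (n = 6). Without WT pig 17 the other 5 WT libraries averaged 0.0714 ± 0.0551 CPM, and the 11 non-CF libraries 0.0688 ± 0.0444. The HET mean, and the WT and non-CF means without WT pig 17, lay within the range of the 3-count limit. The fitted log2 fold change of CF against non-CF was 0.62 with all libraries, 1.95 without WT pig 17, 0.34 without CF pig 5 and 1.68 without both. Against WT alone it was -0.084 and against HET alone 1.99, and these comparisons share the CF libraries. With any single pig other than these left out, the log2 fold change of CF against non-CF lay between 0.49 and 0.74. Within the number sets it was 0.44 in the earlier-numbered and 1.16 in the later-numbered pigs. In CPM each of 5 later-numbered CF libraries lay above each of 5 later-numbered non-CF libraries. In counts the split was not complete. CF pigs 7 to 11 held 10, 6, 18, 7 and 5 counts, and HET pig 20 and WT pig 23 also held 5. Of all genes tested, 2.25% had their later-numbered CF libraries above all later-numbered non-CF ones.

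**Figure D1:**
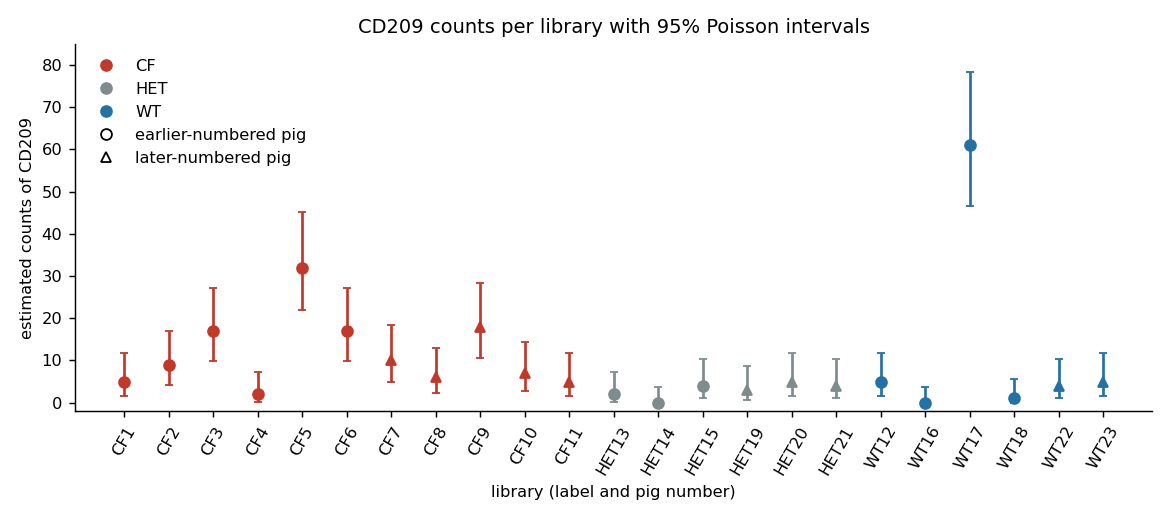
Estimated CD209 counts in each of the 23 libraries (y axis, counts), ordered by label and pig number, with 95% Poisson intervals that cover counting error only. Circles are earlier-numbered and triangles later-numbered pigs, and the highest point is WT pig 17 with 61 counts, above CF pig 5 with 32.

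In HET against WT, CD209 passed the filter on low counts only through 5 CF libraries and WT pig 17, and no HET library had over 5 counts, so its values there are also a description. The log2 fold change was -2.07 with all libraries and -0.081 without WT pig 17, and 6 of 6 HET libraries lay below the WT median.

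CSF1 was the member nearest to a called difference in CF. CSF1 is secreted by tubule, endothelial and stromal cells and keeps macrophages alive through CSF1R. Of its counts 41.1% and 6.53% were assigned to 2 transcripts that the annotation types as misc_RNA rather than mRNA, so the gene's level is not that of its coding transcripts alone. The first of these stood at 4.18 ± 1.51 TPM in CF (SD, n = 11), 1.95 ± 0.846 in HET and 2.62 ± 0.293 in WT (n = 6 each). The second stood at 0.453, 0.561 and 0.365 TPM. The mRNA with the most counts stood at 3.08 ± 1.79, 2.20 ± 0.503 and 2.28 ± 0.612 TPM. The other mRNAs stood at 1.62, 0.974 and 1.01 and at 1.37, 0.975 and 0.753 TPM. Single transcripts were not tested. In CF libraries the gene as a whole ranged from 18.8 CPM (pig 2) through a median of 32.7 to 69.6 CPM (pig 9). In non-CF libraries it ranged from 16.8 through 22.1 to 28.2 CPM. Pigs 1 and 9 stood above the rest with 65.1 and 69.6 CPM, and 8 of 11 CF libraries lay above every non-CF library, while 2 CF libraries lay below the non-CF median. The means were 36.5 ± 16.4 CPM in CF (SD, n = 11) and 22.7 ± 3.59 in non-CF (n = 12). The log2 fold change was 0.69 (SE 0.173, 95% interval 0.33 to 1.05), with an unadjusted p of 0.000502 and an adjusted p of 0.0657 by edgeR's quasi-likelihood test over 20921 genes.

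By that test none of the 9 members other than CD209 passed an adjusted p of 0.05 in CF against non-CF, beside 0.349% of all genes tested, 0.244% being called higher in CF. At an unadjusted p under 0.05 it was 2 of 9, CSF1 and AIF1, beside 13.7% of all genes. DESeq2 called 1 of 9, CSF1 (adjusted p = 0.00807), and 1.99% of all genes, while limma-voom and an exact Mann-Whitney U test called none of the 9 at an adjusted p of 0.05. The study marked genes at an unadjusted p under 0.05 by the Mann-Whitney U test. At that cutoff CSF1 (p = 0.00449) and AIF1 (p = 0.0439) passed the Mann-Whitney U test, as did 2432 of 20921 genes in all. CSF1 also passed in edgeR when CF pig 2 (adjusted p = 0.0335) or CF pig 4 (adjusted p = 0.0483) was left out. In these fits 0.525% and 0.969% of all genes were called. Across the 23 omissions of 1 pig the adjusted p of CSF1 ran from 0.0335 to 0.122. Without CF pigs 1 and 9 together, its log2 fold change was 0.39 (standard error 0.117 and adjusted p = 0.116 in edgeR). Within the number sets the log2 fold change was 0.51 in the earlier-numbered and 0.89 in the later-numbered pigs.

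Against each control label CSF1 did not pass the test in edgeR. The log2 fold change was 0.69 against WT (standard error 0.220 and adjusted p = 0.138 in edgeR) and 0.68 against HET (SE 0.220, adjusted p = 0.330). HET and WT lay at 22.8 ± 4.04 and 22.6 ± 3.46 CPM (SD, n = 6 each). No member other than CD209 was called by edgeR in CF against WT, beside 0.336% of all genes, or in CF against HET, beside 0.0% of all genes. At an unadjusted p under 0.05 it was 1 of 9 in CF against WT, CSF1, beside 14% of all genes, and 3 of 9 in CF against HET (C1QA, C1QB and CSF1), beside 9.83% of all genes in the latter. DESeq2 called CSF1 in CF against WT (adjusted p = 0.0389, beside 2.27% of all genes) and none of the 9 in CF against HET, beside 0.255%.

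**Figure D2:**
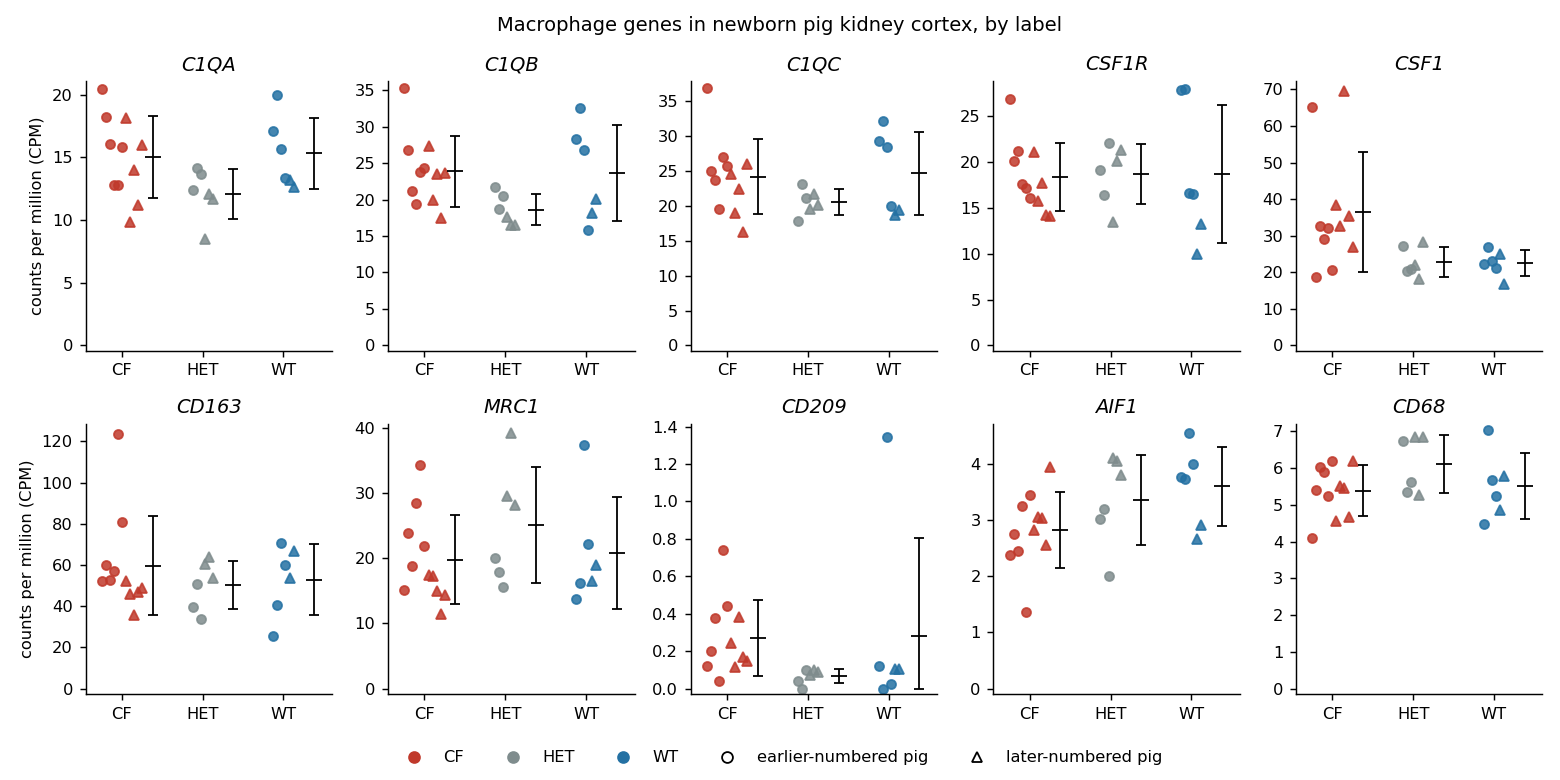
Level of each of the 10 genes (y axis, CPM on a linear scale) in the libraries labelled CF, HET and WT. Each point is 1 pig, circles are earlier-numbered and triangles later-numbered pigs, and bars show the mean ± SD, with the lower arm for CD209 in WT ended at 0. CSF1 is spread widely in CF, up to 69.6 CPM, and the C1q genes lie low in HET.

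The receptor CSF1R showed no called difference. It ranged from 14.2 CPM (CF pig 11) through a median of 17.6 to 26.9 CPM (CF pig 1) in CF, and from 9.98 (WT pig 22) through 17.9 to 28.0 CPM (WT pig 16) in non-CF. The CF range lay inside the non-CF range, with a log2 fold change of -0.027 (95% interval -0.33 to 0.27, edgeR's adjusted p = 0.966). CSF1 and CSF1R had a Spearman rho of 0.20 over the 23 libraries.

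Among the genes whose ranks were most like CSF1R over 23 libraries were CBX6 (rho 0.91), ST14 (0.90), XYLT2 (0.89) and MAPK3 (0.89), none of these 4 on a macrophage list. C1QC, the member closest to CSF1R, had a rho of 0.53 and stood 1773rd of 20920 genes. For CSF1 the 5 most alike were TUT1 (rho 0.76), LOC110261311 (0.75), IER5 (0.75), CACNG4 (0.73) and WIPF1 (0.72).

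The 3 C1q genes encode the chains of 1 protein complex and varied together. Over the 23 libraries the Pearson r was 0.81 for C1QA with C1QB, 0.80 for C1QA with C1QC and 0.86 for C1QB with C1QC, and Spearman's rho was 0.79, 0.81 and 0.78. All 3 passed adjustment over the 45 pairs of members (permutation test, 100000 resamples, two-sided, largest adjusted p = 0.00045 for rho). Within the earlier-numbered pigs (n = 13) r was 0.83 to 0.87 and rho 0.73 to 0.87. Within the later-numbered pigs (n = 10) r was 0.70 to 0.74, while rho was 0.71, 0.64 and 0.49 in the same order. Without the 2 libraries farthest from the median r was 0.76 to 0.80. After the means of label and number set were taken out, r was 0.69, 0.76 and 0.85.

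C1QB ranged from 17.5 CPM (CF pig 10) through 23.7 to 35.3 CPM (CF pig 1) in CF. In HET pigs 13, 14, 15, 19, 20 and 21 it stood at 21.7, 18.7, 20.4, 17.6, 16.6 and 16.4 CPM, and in WT pigs 12, 16, 17, 18, 22 and 23 at 28.4, 32.6, 26.8, 15.8, 18.2 and 20.1 CPM. The HET mean was the lowest of the 3 labels for each C1q gene. Every HET library lay below the WT median for each of the 3 genes, but the groups overlapped. The log2 fold change of HET against WT was -0.35 for C1QA (SE 0.160), -0.35 for C1QB (SE 0.161) and -0.26 for C1QC (SE 0.158), with edgeR's adjusted p = 0.624, 0.624 and 0.703. CF lay near WT, with log2 fold changes from -0.029 to 0.014, and above HET by 0.32, 0.36 and 0.23 (edgeR's adjusted p = 0.467, 0.416 and 0.606). In HET against WT edgeR called none of the 9 members other than CD209, beside 0.00467% of all genes, and 2 of 9 (C1QA and C1QB) had an unadjusted p under 0.05, beside 8.0% of all genes. DESeq2, which called 0.13% of all genes, and limma-voom also called none of the 9. With number set as a term in edgeR the log2 fold changes were -0.30 for C1QA, -0.30 for C1QB and -0.20 for C1QC. The unadjusted p in that edgeR fit was 0.0483, 0.0549 and 0.187, so C1QB no longer lay under 0.05.

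CD163 and MRC1, both endocytic receptors of tissue macrophages, also varied together. Their Spearman rho was 0.79 and Pearson r 0.68 over 23 libraries (permutation test, adjusted p over 45 pairs = 0.000675 and 0.00225). The r was 0.79 in the earlier-numbered and 0.63 in the later-numbered pigs, and 0.58 without CF pig 5 and WT pig 17, the libraries highest in CD209. Neither went with the C1q genes, with rho from -0.33 to 0.057. By rank correlation 4 of the 45 pairs passed adjustment, the 3 C1q pairs and this one, and by Pearson's r 7 passed, the other 3 being CSF1R with each C1q gene (r from 0.57 to 0.61). For CSF1R with C1QA, C1QB and C1QC the r was 0.69, 0.68 and 0.56 in the earlier-numbered pigs. In the later-numbered pigs it was 0.24, 0.17 and 0.43.

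**Figure D3:**
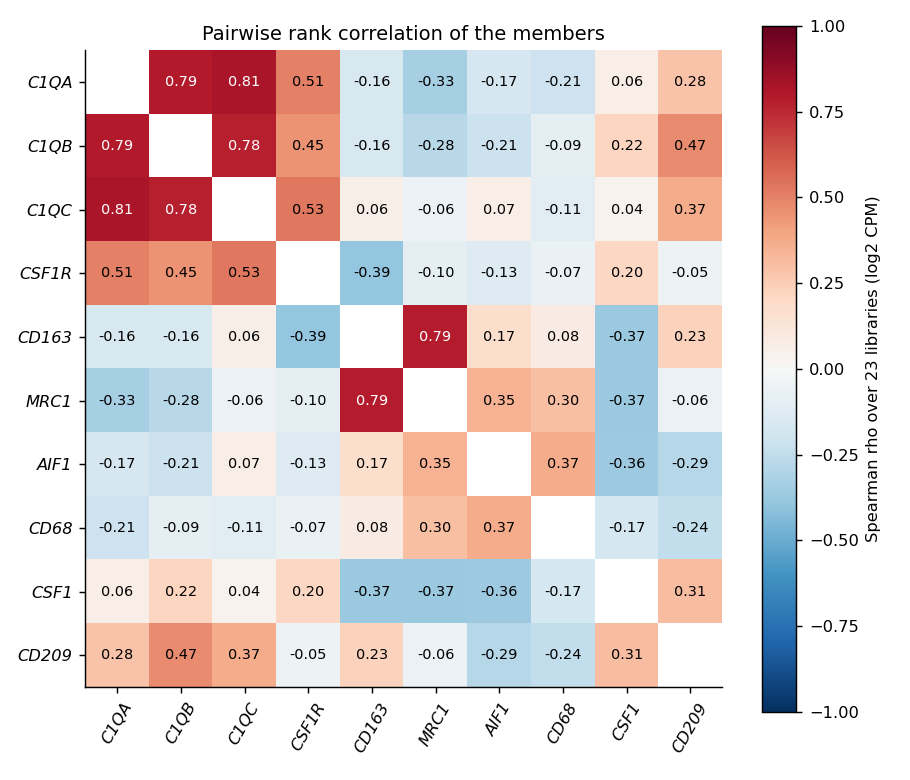
Spearman's rho of log2 CPM over 23 libraries for each pair of the 10 genes, on a color scale from -1 to 1. The 3 C1q genes form a block with rho from 0.78 to 0.81, CD163 and MRC1 a pair with 0.79, and CD209 has no rho above 0.47.

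In CF against non-CF, CD163 and MRC1 had log2 fold changes of opposite sign in the 2 number sets. CD163 in CF pigs 1 to 6 stood at 52.3, 60.2, 52.9, 57.2, 123 and 80.8 CPM, and in the 7 earlier-numbered non-CF pigs between 25.7 and 70.9 CPM. In CF pigs 7 to 11 it stood at 52.1, 45.7, 35.9, 46.7 and 49.1 CPM, and in the 5 later-numbered non-CF pigs between 53.5 and 66.8 CPM. All 6 earlier-numbered CF libraries were above the median of their non-CF libraries, and all 5 later-numbered ones were below every non-CF library, as in 2.39% of all genes tested. The log2 fold change was 0.64 in the earlier-numbered pigs (standard error 0.237 and adjusted p = 0.401 in edgeR) and -0.37 in the later-numbered (SE 0.103, adjusted p = 0.0783).

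MRC1 had a mean of 23.7 ± 6.86 CPM in the earlier-numbered CF pigs (SD, n = 6) and 20.4 ± 7.97 in non-CF (n = 7). In the later-numbered pigs it was 15.05 ± 2.48 CPM in CF (n = 5) and 26.4 ± 9.05 in non-CF (n = 5), where HET pigs 19, 20 and 21 held 29.5, 39.1 and 28.1 CPM and WT pigs 22 and 23 held 16.5 and 19 CPM. The 3 later-numbered HET pigs were thus the high ones. The log2 fold change was 0.23 in the earlier-numbered and -0.81 in the later-numbered pigs (standard error 0.207 and adjusted p = 0.0619 in edgeR). The difference between the sets, later minus earlier, was -1.01 for CD163 (SE 0.305, unadjusted p = 0.00289, edgeR's adjusted p = 0.224) and -1.03 for MRC1 (SE 0.337, unadjusted p = 0.00539, edgeR's adjusted p = 0.262). Neither passed the test over all genes, where 0.0191% did, and 2 of 9 members had an unadjusted p under 0.05, beside 10.1% of all genes. Over all pigs the log2 fold change was 0.21 for CD163 (adjusted p = 0.669 by edgeR) and -0.21 for MRC1 (adjusted p = 0.689). With 1 pig left out it ran from 0.045 to 0.26 for CD163 and from -0.32 to -0.12 for MRC1.

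**Figure D4:**
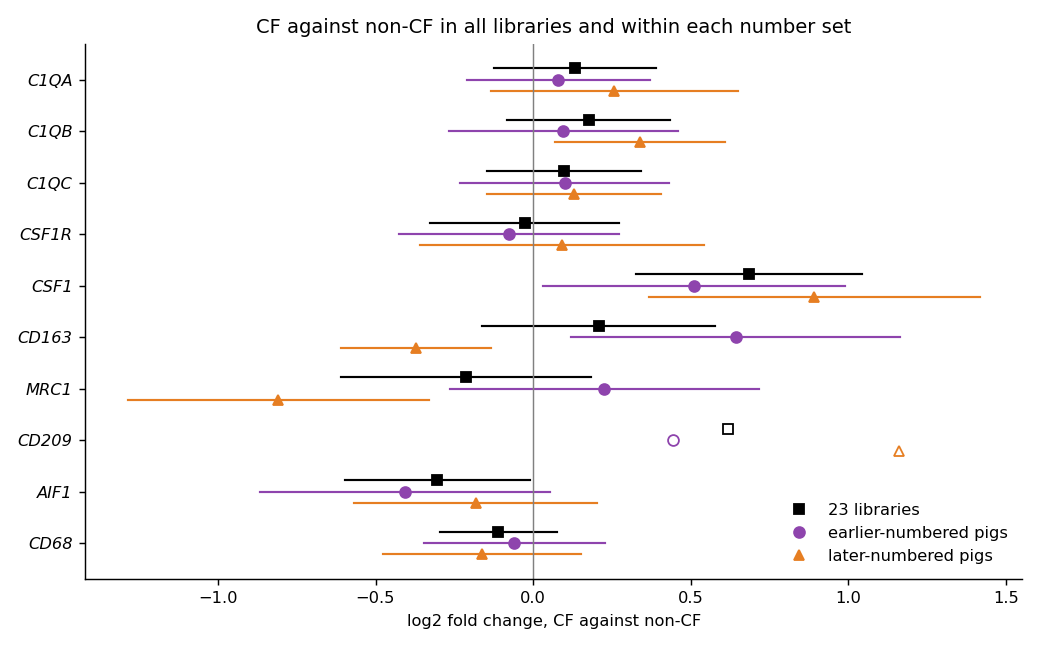
Log2 fold change of CF against non-CF (x axis) for each gene in all 23 libraries (squares), the 13 earlier-numbered (circles) and the 10 later-numbered pigs (triangles), with 95% intervals. CD209 is drawn open and without intervals as a description. CD163 and MRC1 lie on opposite sides of 0 in the 2 sets, at 0.64 and -0.37 and at 0.23 and -0.81.

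**Figure D5:**
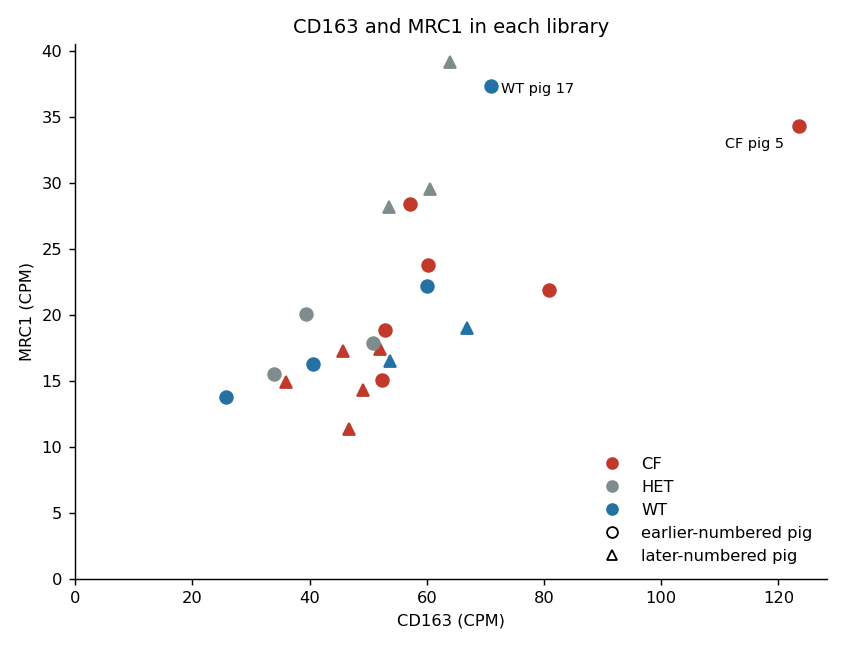
CD163 (x axis, CPM) against MRC1 (y axis, CPM) in each library, colored by label, with circles for earlier-numbered and triangles for later-numbered pigs. The later-numbered CF libraries lie at the lower left and CF pig 5 at the far right, at 123 CPM of CD163.

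AIF1 and CD68, pan-macrophage genes, did not pass the test either. AIF1 ranged from 1.36 CPM (CF pig 5) through 2.82 to 3.95 CPM in CF and from 2.001 through 3.75 to 4.54 CPM in non-CF, with 10 of 11 CF libraries below the non-CF median. Its log2 fold change was -0.30 (SE 0.141, unadjusted p = 0.0406, edgeR's adjusted p = 0.338). CD68 ranged from 4.11 to 6.20 CPM in CF and from 4.48 to 7.05 in non-CF, with a log2 fold change of -0.11 (standard error 0.0894 and adjusted p = 0.644 in edgeR). CF pig 5 had the highest CD163 and the lowest AIF1 of all libraries.

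Over all pigs CD209 did not follow the other members. None of its 9 relations passed adjustment by rho or by r (permutation test, lowest adjusted p over 9 = 0.222 for rho), and the strongest was with C1QB (rho 0.47, n = 23). Within the earlier-numbered pigs (n = 13) the rho was 0.57 with CD163, 0.40 with MRC1, 0.14 with CSF1 and 0.36 with C1QB. In the later-numbered pigs (n = 10) it was -0.71, -0.73, 0.75 and 0.70 in that order. None of the 9 passed adjustment within either set (permutation test, lowest adjusted p for rho = 0.408 and 0.0685). These relations hold the difference between labels on which CD209 was selected. With the label means taken out, the rho with C1QB was 0.13 and the strongest was with MRC1 (0.37), and again none passed adjustment (lowest adjusted p = 0.487, permutation test). Its most similar genes by rank were CTSK (rho 0.81), GLT8D2 (0.77), PRKACB (0.76), TIMP3 (0.76) and MEDAG (0.75), of which the collagen-degrading protease CTSK and the matrix protein TIMP3 are known from connective tissue. After the means of label and number set were taken out, the rho was 0.60, 0.63, 0.50, 0.44 and 0.80 in that order. These 5 genes were picked from 20921 by their likeness to CD209 over the same libraries. High ranks of WT pig 17 and CF pig 5 in them thus follow in part from that choice. Of these 5 genes WT pig 17 was the highest library for GLT8D2 and MEDAG and ranked 3, 5 and 7 of 23 for CTSK, PRKACB and TIMP3. Of 8 fibroblast and mural markers it was the highest for COL3A1 and DCN, ranked 2 or 3 for LUM, ACTA2, RGS5, PDGFRA and COL1A1, and ranked 21 for PDGFRB. The summed level of the 8 markers ranged from 2264 to 4512 CPM in CF, from 2169 to 3418 in HET and from 2231 to 4891 in WT, the last value being WT pig 17, which ranked 2 by the mean of their log2 levels. CF pig 5, the next highest in CD209, ranked between 1 and 4 for CTSK, PRKACB, MEDAG, DCN, LUM, PDGFRA and RGS5, 7 or 9 for COL3A1, PDGFRB and TIMP3, 14 for COL1A1 and ACTA2, and 16 for GLT8D2. Over 23 libraries CD209 had a rho of 0.26 with the mean of these 8 markers, and of 0.066 without WT pig 17 and CF pig 5, and none of its relations with 14 gene lists passed adjustment (permutation test, lowest adjusted p = 0.728 for rho). This relation was looked for after the similar genes were seen. The part of connective tissue in the CD209 values was not tested.

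Other genes of macrophage biology showed no difference called by edgeR over all 23 libraries. Of 30 further macrophage markers in the table, 28 were tested in CF against non-CF, 9 higher and 19 lower, none called, with a median log2 fold change of -0.051 beside -0.000513 over all genes. Of the 28, 1 had an unadjusted p under 0.05, beside 13.7% of all genes. Nearest were CCR2, a monocyte chemokine receptor (log2 fold change -0.46, adjusted p = 0.355), the protease CTSS (-0.18, 0.384) and the lipid receptor TREM2 (-0.68, 0.391), all by edgeR. The summed level of the 30 markers ranged from 465.8 to 550 CPM in CF and from 450 to 597 CPM in non-CF. In bulk cortex, fewer macrophages and less RNA per macrophage cannot be told apart.

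Along the CSF1 receptor axis 13 of 14 genes were tested, 3 higher and 10 lower with a median log2 fold change of -0.12, none called and 3 at an unadjusted p under 0.05. Of all genes 13.7% had an unadjusted p under 0.05, the share to set beside this count and those of the next 3 lists. The kinases PIK3CD and SYK, which signal downstream of CSF1R and other receptors, had log2 fold changes of -0.30 and -0.28, each lower in 10 of 11 CF libraries than the non-CF median, and the receptor chain CSF2RB 0.32 (edgeR's adjusted p = 0.130, 0.286 and 0.341). Of the complement genes 25 were tested, 11 higher and 14 lower with a median of -0.047, none called and 2 at an unadjusted p under 0.05, with factor D (CFD, 0.33) and the terminal component C9 (0.20) nearest among the higher ones (adjusted p = 0.333 and 0.359 by edgeR). Of the C-type lectins and CD209 ligands 15 were tested, 4 higher and 11 lower with a median of -0.028, none called and 2 at an unadjusted p under 0.05, with the lectin LY75 at -0.54 and the CD209 ligand ICAM2 at -0.25 (edgeR's adjusted p = 0.257 and 0.302). LY75 lay below the non-CF median in 11 of 11 CF libraries. PIK3CD, SYK and LY75 were named for a small p, and the share of all genes for such counts of libraries is not given. CLEC4G, the neighbour of CD209, was at 0 in some libraries and was among the 7 lectins of that list with such a library. Of 22 inputs and targets of alternative activation 18 were tested, 13 higher and 5 lower with a median of 0.029, none called and 3 at an unadjusted p under 0.05, with the interleukin receptor IL4R at 0.43, the inhibitory receptor CD200R1 at -0.96 and the glucocorticoid-induced FKBP5 at 0.30 (edgeR's adjusted p = 0.170, 0.230 and 0.263). In the later-numbered pigs alone CD200R1 was called lower in CF (log2 fold change -1.78, edgeR's adjusted p = 0.0494), beside 2.27% of all genes called there. IL4, IL13 and IL10 were at 0 in some libraries.

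The inflammatory list had the largest median shift of the lists. Of 17 genes tested 14 were higher in CF and 3 lower, with a median log2 fold change of 0.29 and none called. At an unadjusted p under 0.05 it was 6 of 17, beside 13.7% of all genes. Nearest were the NF-kappaB inhibitors TNFAIP3 (log2 fold change 0.92, SE 0.280) and NFKBIA (0.52, SE 0.171) and the cytokine IL1B (1.07, SE 0.363), with edgeR's adjusted p = 0.120, 0.151 and 0.166. The pigs highest in CSF1 were also high in TNFAIP3 and NFKBIA. TNFAIP3 stood at 55.1 and 69.3 CPM in CF pigs 1 and 9 and between 9.77 and 24.8 CPM in the other 21. NFKBIA stood at 122 and 80.4 CPM against 30.0 to 63.8. IL1B stood at 8.67 CPM in CF pig 1 and at 2.55 in CF pig 9, which was below CF pig 5 at 2.63. Of the 17 genes, 10 (58.8%) had their highest library in CF pig 1 or 9, which was so for 19.8% of all genes, a count made after the values were seen. Without these 2 pigs the log2 fold changes were 0.25, 0.23 and 0.29 (edgeR's adjusted p = 0.358, 0.331 and 0.546). FOS and JUNB are immediate early genes outside the lists and were chosen after their values were seen. FOS stood at 416 CPM in CF pig 1, 5.24 in CF pig 9 and 155 in WT pig 12, against a median of 3.54 over the 21 libraries other than CF pigs 1 and 9. JUNB stood at 229, 45.8 and 73.1 CPM in these 3 pigs, against a median of 16.1. The part of such responses in the CSF1 values was not tested.

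Markers of other cells gave no called difference between CF and non-CF in edgeR over all 23 libraries. DESeq2 called 3 of them lower, RHAG, SLC12A1 and SLC12A3, beside 1.99% of all genes called by DESeq2 in either direction. In the later-numbered pigs alone edgeR called KDR (log2 fold change -0.48, adjusted p = 0.0240), SLC12A3 (-0.71, 0.0215) and SLC12A1 (-0.40, 0.0346) lower in CF, beside 2.27% of all genes called there. Without HET pig 13 it called SLC12A3 (adjusted p = 0.0274) and SLC12A1 (adjusted p = 0.0346), beside 0.72% of all genes. Among 9 dendritic cell genes tested 5 were higher and 4 lower (CD83, nearest, at a log2 fold change of 0.42, edgeR's adjusted p = 0.231). The T and NK list had 1 higher and 8 lower, the B cell list 2 and 5, and the neutrophil and mast cell list 2 and 6. Endothelial and lymphatic markers had 6 higher and 5 lower (KDR -0.26, edgeR's adjusted p = 0.149), fibroblast and mural markers 6 and 2, erythroid markers 3 and 6, and kidney tubule and podocyte markers 6 and 4. RGS5, a pericyte gene, lay above the non-CF median in 11 of 11 CF libraries at a log2 fold change of 0.25 (edgeR's adjusted p = 0.156). RGS5 too was named for a small p, and the share of all genes that do so is not given. Numbers with an unadjusted p under 0.05 were 1, 1, 1, 0, 1, 1, 2 and 3 in these 8 lists in that order, beside 13.7% of all genes. Summed levels of each of these 8 lists overlapped between CF and non-CF. In HET against WT no gene of the 14 lists was called by edgeR.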

How the data were processed

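Kidney cortex RNA was depleted of ribosomal RNA, made into stranded libraries and quantified by the authors with kallisto, per the labels against Sscrofa11.1. The deposited estimated counts and TPM are per transcript, and a deposited table pairs each of 77689 transcripts with a gene. Estimated counts were summed per gene symbol and rounded to whole numbers, and TPM were summed. Because 63.0% of transcript values were not within 1e-06 of a whole number, reads shared between transcripts were divided by estimate.

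Genes were tested with edgeR 4.0.16 in R 4.3.3 (TMM scaling, filterByExpr with a minimum count of 10, quasi-likelihood F test, Benjamini-Hochberg adjustment over all genes, threshold 0.05). CF against non-CF used 2 groups, also within number sets, HET against WT, CF against WT and CF against HET used 3, and the difference of the CF effect between number sets was an interaction of 2 groups with set. CD209 failed the filter in CF against non-CF, so its fold changes there came from a fit without it. Each p measures the spread between pigs. Relations used log2 CPM with a prior count of 2 and 100000 permutations. Scripts were tested on simulated data. Alternatives were DESeq2 1.42.0, limma-voom (limma 3.58.1), the Mann-Whitney test of the study (here with adjusted p), other scalings, number set or EIF1AY as a term, and each pig left out. Alternatives without pairs of pigs were chosen after seeing the data.

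Named genes were the 10 members, CFTR, up to 3 genes of each list with the smallest p, and the 5 genes most like CD209, CSF1R and CSF1, of which 1 is not reported here. Other genes named, such as FOS, JUNB, EIF1AY, ARG1, further fibroblast markers and list genes at 0 in some library, fall outside this rule and were chosen after their values were seen. HET against WT of CD209 was planned as a test and is given without one, since the filter let it in through CF libraries. The members and lists were chosen with earlier results of these data known. Counts of libraries beyond another group's median or range are given without the share of all genes, except within the later-numbered pigs. CYBB, CLEC4D, CLEC4A, CLEC6A and ZAP70 were not found by symbol and were not analysed here.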

Additional observations from a re-analysis of the deposited data

Results flagged for a closer look

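In WT pig 17, CD209 stood at 1.35 CPM and MRC1 at 37.3 CPM, each further from the other 5 WT libraries than Dixon's test allows at the 95% level. The test covered 20 groups of 6 libraries, the HET and the WT group of each of the 10 genes, and chance marks about 1 in 20 groups. These were the only 2 of the 20.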

How the results depend on the processing

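No paired analysis was possible, because the labels give no litter and no pig number is shared between groups. The study paired CF and WT littermates in its metabolite comparisons. Any littermates among the pigs sequenced were treated as independent here. The count of members called in CF against non-CF was 1 with DESeq2, beside 1.99% of all genes, and 0 to 1 with 1 pig left out. It was CSF1 each time (without CF pig 2 or 4, beside 0.525% and 0.969% of all genes). In CF against WT the count was 1 with DESeq2, beside 2.27% of all genes. Over the gene lists DESeq2 called 3 genes in CF against non-CF (RHAG, SLC12A1 and SLC12A3, beside 1.99% of all genes) and 1 in HET against WT (ARG1, beside 0.13% of all genes). In both comparisons edgeR on all libraries called none. In CF against non-CF edgeR also called CD200R1, KDR, SLC12A1 and SLC12A3 in the later-numbered pigs, beside 2.27% of all genes, and SLC12A1 and SLC12A3 without HET pig 13, beside 0.72%. The CD209 log2 fold change ranged from 0.34 to 1.95 with 1 pig left out. Of 1521 values of single genes under alternatives, 30 changed sign, 13 newly passed the threshold and 0 were lost. For CF against non-CF the sign changed for CD163 in the later-numbered pigs (-0.37) and by medians (-0.044), MRC1 in the earlier-numbered pigs (0.23), CTSS in the earlier-numbered pigs (0.00804), and CSF1R with limma-voom (0.00479), in the later-numbered pigs (0.092) and with 1 pig left out (-0.096 to 0.039). For HET against WT it changed for CSF1R with upper-quartile scaling (-0.029), EIF1AY as a term (-0.082) or 1 pig left out (-0.12 to 0.16), and for CSF1 with upper-quartile scaling (-0.013), number set as a term (-0.0084), EIF1AY as a term (-0.18) or 1 pig left out (-0.055 to 0.076). With 1 pig left out it also changed for CD163 (-0.21 to 0.037) and AIF1 (-0.17 to 0.014). The cause was not tested. Depth limits CD209, at a median of 5 counts a library.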
